A study of Mus musculus with 11 samples.

Results

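The genes described here are 56 mouse genes of glucose metabolism and the tricarboxylic acid cycle, taken by gene symbol from the array's table of spots and genes. Of these, 49 have at least 1 spot on the array, 32 have a value on at least 1 of the 10 arrays compared, and 14 have values on at least 2 arrays of every group and could be tested. The array carries 13406 genes with a symbol, and 3558 genes, spots without a symbol included, could be tested in the same way. The list was drawn up by function, with earlier results of these data known.

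Livers came from C57/BL/6J mice. Feeding lasted 10 weeks in all groups: Purina chow (6.5% fat) for the controls and a diet of 42.16% fat for the other groups. The fasted mice, fed the rich diet as well, then went 48 h without food. There is no fasted group on chow, so the difference between fasted and control livers holds both the diet and the fast. The study groups held 9, 5 and 4 mice per the labels, and 4 control, 4 high-fat and 3 fasted mice have an array here, with 1 mouse per array. Neither sex nor age is given in the sources used here. Each array set Cy5-labelled liver RNA against a common Cy3-labelled universal mouse reference RNA. A value is the log ratio of liver over reference, taken as log2, after centring of each array on its median. A positive value means a ratio of liver over reference above the median of the filled spots on that array. Values of different genes are not set against each other.

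Arrays held between 3864 and 5567 filled spots of 17280. High-fat array 4 had a Pearson r between -0.03 and 0.01 with the other arrays over shared spots and was left out, while the other 10 had r between 0.69 and 0.94 with each other. On that array 18 of the members held a value, among them -0.85 for Mdh1 and -0.49 for Foxo1, against 0.81 to 1.03 and 0.41 to 0.43 on high-fat arrays 1 to 3. Ratios spread less on high-fat arrays, with median absolute deviations of 0.26 to 0.39, than on fasted (0.44 to 0.49) or control arrays (0.43 to 0.52). Of 17 hepatocyte markers 12 could be tested. Their mean over the 11 filled on all 10 arrays was 1.64 to 2.81 on control, 1.19 to 1.48 on high-fat and 1.24 to 1.35 on fasted arrays, with the top value on control array 2. All 12 were lower in high-fat than in control livers (median -0.60), which turned to 7 higher and 5 lower (median 0.13) with arrays scaled to a common spread and to 6 and 6 (median -0.03) with quantile normalisation. All 12 were also lower in fasted than in control livers, the comparison in which Pfkl was called (median -0.64), and this held with scaled arrays (12 lower, median -0.53) and for 9 of 12 with quantile normalisation (median -0.50). In each of these comparisons 2 of the 12 fell with arrays centred on their medians, and 1 with scaled arrays or with quantile normalisation. Over all genes tested, 4.92% were called for high-fat against control (105 rose, 70 fell), where 39.7% had a negative change. For fasted against control 3.2% were called (77 rose, 37 fell), and 52% of all genes had a positive change. Of 43 markers of other cell types 8 could be tested, and 1 of them, the endothelial receptor gene Kdr, was called, higher in fasted than in control livers (0.90, adjusted p = 0.0181). Kdr was the only 1 of 7 endothelial markers with enough values for the test. The share of all genes called for fasted against control was 3.2%. With scaled arrays 0 of these 8 were called in that comparison. In whole liver, fewer cells of a type and less RNA per cell cannot be told apart. The part of cell make-up and of array spread in the results below was not tested.

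The liver keeps blood glucose steady. After a meal it takes glucose up, stores it as glycogen and passes the rest through glycolysis to pyruvate. Without food it breaks glycogen down and then makes glucose from lactate, amino acids and glycerol by gluconeogenesis, which runs glycolysis backwards with its own enzymes at the irreversible steps. Pyruvate enters the mitochondrial cycle through the pyruvate dehydrogenase complex, which kinases switch off when fat is burned. Insulin, glucagon and the transcription factor Foxo1 set the balance of these pathways.

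The 7 members without a spot were Pck2, Irs2, Gpi1, Pfkfb1, Eno1, Ppp1r3b and Pdk1. Another 17 had a spot but no value on any of the 10 arrays. Among these were Pck1, the cytosolic phosphoenolpyruvate carboxykinase that commits carbon to glucose, Ppargc1a, a coactivator of the fasting response, and Igfbp1, an insulin-repressed secreted protein. The hexokinases Hk1 and Hk2, the mutase Pgam1 and the fructose-specific ketohexokinase gene Khk were empty as well, as were Ugp2, Pgm1 and Pgm2 of the glycogen route. From the cycle and its entry, Aco1, Idh1, Idh3a, Idh3b, Idh3g, Dld and Dlat held no value. Why cells are empty is not given in the sources used here, so an empty cell is read neither as low nor as absent expression. The other 18 members had values but too few for the test.

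By pathway, values sufficed for the test in 3 of 16 glycolysis genes, 1 of 8 gluconeogenesis genes, 2 of 8 glycogen genes, 1 of 4 genes of hormonal control, 2 of 5 genes of the pyruvate dehydrogenase complex and 5 of 15 genes of the cycle. Members were filled unevenly over arrays, with 30 filled on control array 2, 26 on fasted array 1, 23 on control array 3 and 15 to 22 on the others. The map of filled cells shows this pattern. Pfkl, Aldoa, Pklr, Mdh1, Gys2, Gbe1, Foxo1, Pdhb, Mdh2, Dlst and Sucla2 had a value on all 10 arrays.

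**Figure D1:**
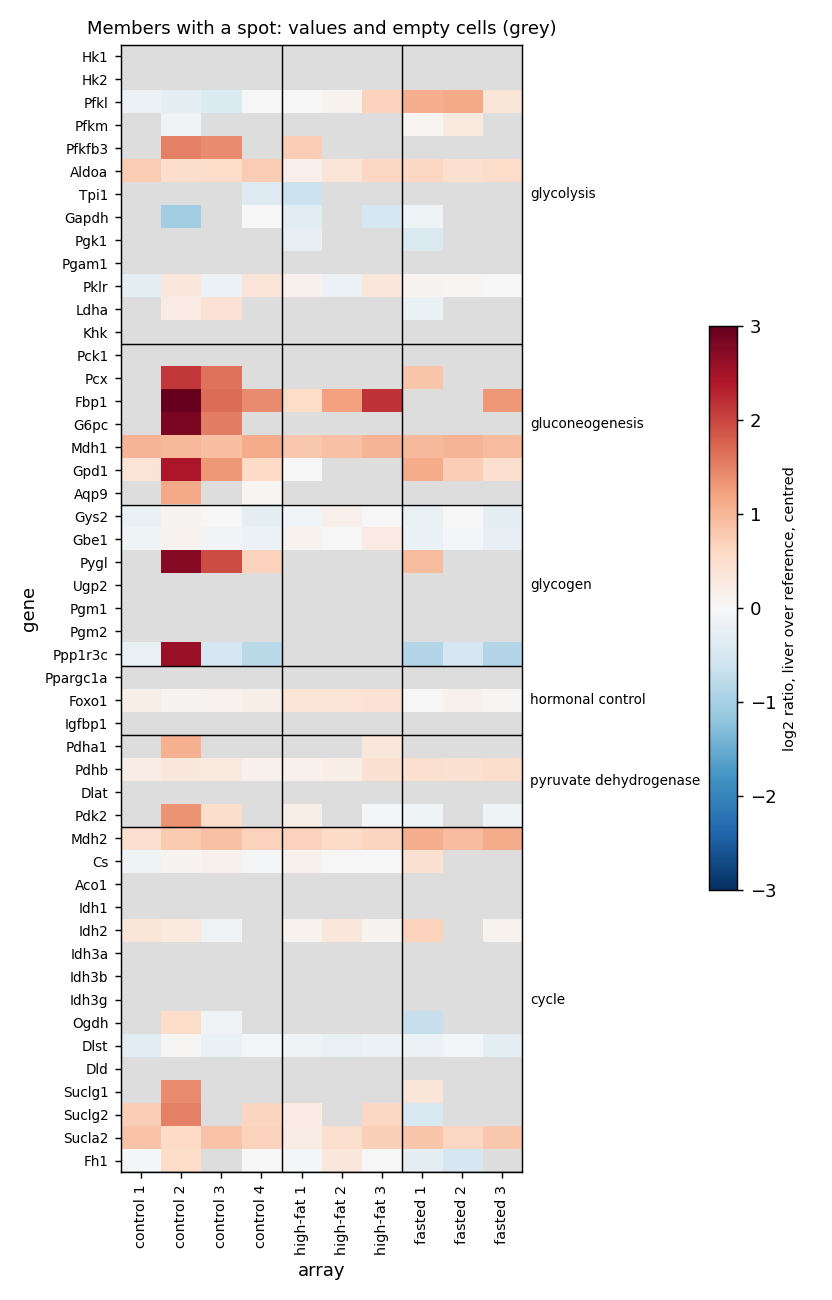
Centred log2 ratio of liver over reference (colour) for each of the 49 members with a spot (rows, by pathway) on each of the 10 arrays (columns), with empty cells in grey. Control array 2 has the most filled members, 30, and 17 members are grey throughout.

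Across the 3 comparisons 1 member was called at an adjusted p under 0.05. Pfkl, the liver type of phosphofructokinase that catalyses the committed step of glycolysis, rose by 2.11-fold between control and fasted livers. Between high-fat and control livers 0 of 14 members were called by limma with Benjamini-Hochberg adjustment, against 4.92% of all genes tested (105 rose, 70 fell), and 3 members had an unadjusted p under 0.05, against 25.2% of all genes. Between fasted and high-fat livers 0 of 14 were called, against 0.365% of all genes (3 rose, 10 fell), and 5 members had an unadjusted p under 0.05, against 14.6%. Between fasted and control livers 1 of 14 was called, against 3.2% of all genes (77 rose, 37 fell), and 4 had an unadjusted p under 0.05, against 20.4%. The balance of rises and falls over all genes depended on the scaling. For high-fat against control it was 35 and 51 with values as deposited, 55 and 82 with arrays centred on spots filled throughout, 101 and 24 with scaled arrays and 135 and 21 with quantile normalisation. For fasted against high-fat it was 11 and 5 with values as deposited, 0 and 15 with scaled arrays and 3 and 21 with quantile normalisation. For fasted against control it was 180 and 18, 39 and 52, 8 and 2, and 64 and 9 with values as deposited, centring on spots filled throughout, scaling and quantile normalisation.

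The tested members had a median change of -0.02 between high-fat and control (6 higher, 8 lower), where 60.3% of all genes were higher and their median was 0.08. Between fasted and high-fat it was 0.05 (8 higher, 6 lower), where 43.3% of all genes were higher and their median was -0.05. Between fasted and control it was -0.03 (5 higher, 9 lower), where 52% of all genes were higher and their median was 0.01. With arrays scaled to a common spread or with quantile normalisation the medians of the first 2 comparisons turned to 0.08 and -0.02, or to 0.10 and -0.02, and with values as deposited the median for fasted against control turned to 0.15. The median of all genes itself moved to 0.16 and 0.21 for fasted against high-fat and against control with values as deposited, and to 0.11 for high-fat against control with quantile normalisation. The 3 comparisons share arrays, each group standing in 2 of them, so they are not independent of each other.

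**Figure D2:**
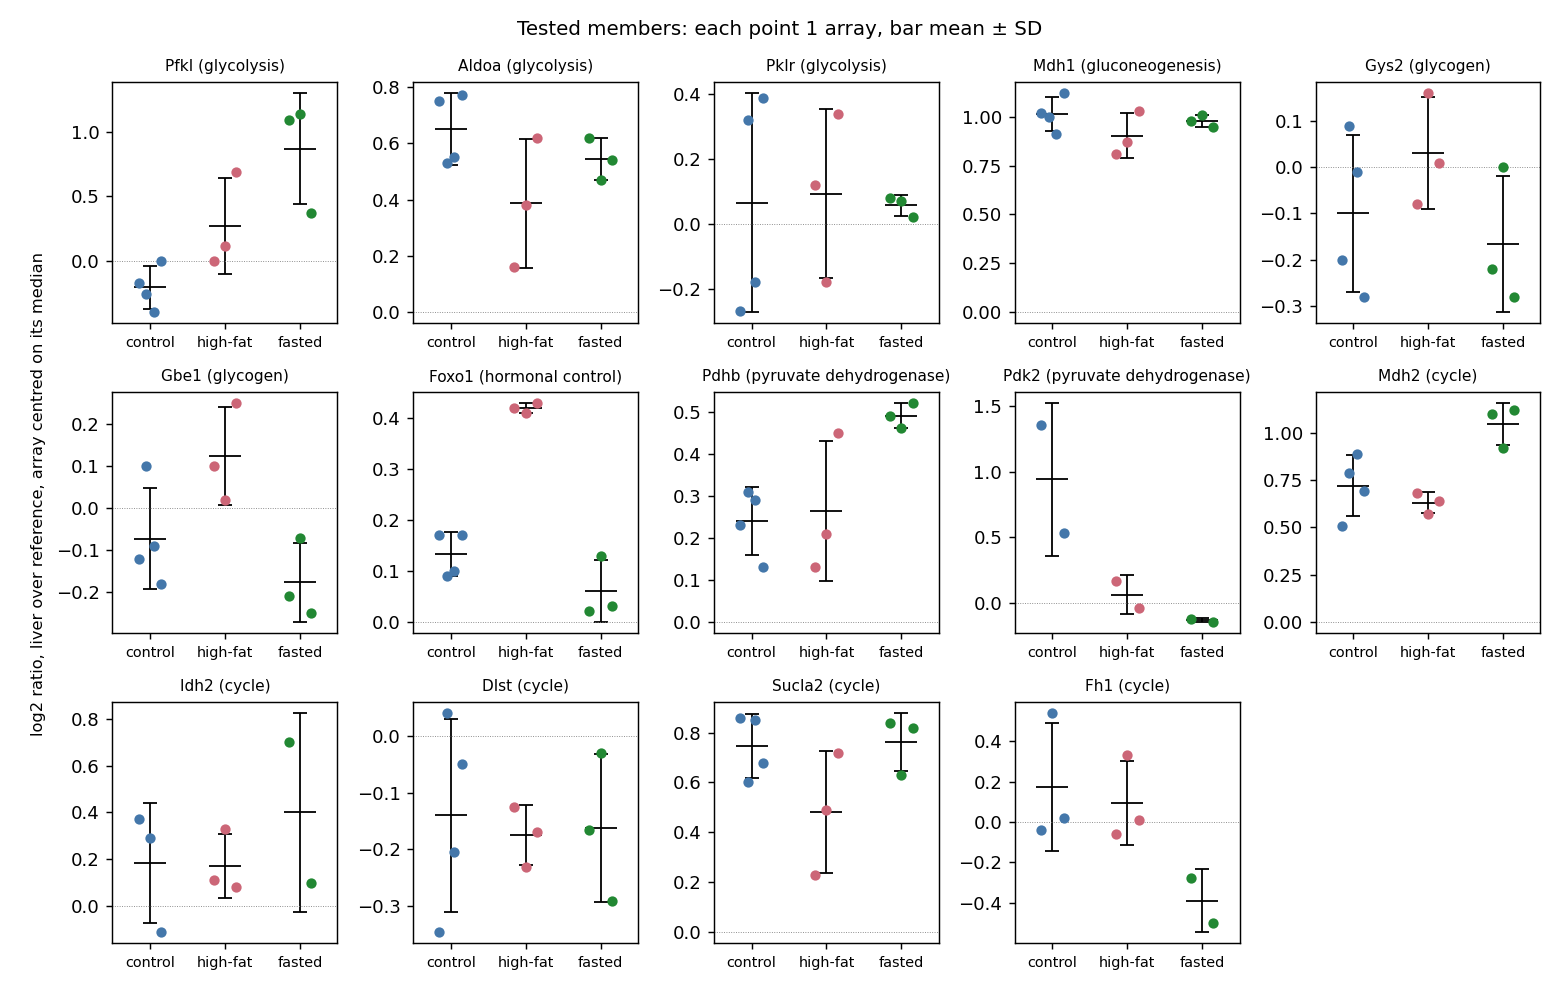
Centred log2 ratio of liver over reference for the 14 tested members in control, high-fat and fasted livers. Each point is 1 array, and the bar gives the mean ± SD. The 3 fasted points of Pfkl lie at 0.37 to 1.14, above all 4 control points at -0.40 to 0.

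Among the glycolysis genes, Pfkl had ratios of -0.17, -0.26, -0.40 and 0 on control arrays 1 to 4, of 0, 0.11 and 0.69 on high-fat arrays 1 to 3, and of 1.09, 1.14 and 0.37 on fasted arrays 1 to 3. All fasted arrays lay above all control arrays, while high-fat array 3 lay above fasted array 3. Its mean was -0.21 ± 0.17 (SD, n = 4) for control, 0.27 ± 0.37 (SD, n = 3) for high-fat and 0.87 ± 0.43 (SD, n = 3) for fasted livers. The change between control and fasted livers was 1.07 ± 0.21 (SE, limma, adjusted p = 0.0274), with a 95% interval from 0.61 to 1.54. Between control and high-fat livers it was 0.47 ± 0.21 (SE, adjusted p = 0.192), and between high-fat and fasted livers 0.60 ± 0.23 (SE, adjusted p = 0.273). The F test over the 3 groups, called for 5.56% of all genes, had an adjusted p of 0.0385 for Pfkl, the only one of the 14 members under 0.05.

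The call of Pfkl was narrow. Its change for fasted against control lay between 0.94 and 1.32 over 19 other settings and kept its sign in all of them, and the adjusted p ranged from 0.0089 to 0.115. A fit of single spots gave 1.07 as well (adjusted p = 0.0254). It was lost without fasted array 1 (0.0933), fasted array 2 (0.115), control array 1 (0.0515) or control array 3 (0.0526), with arrays scaled to a common spread (0.0747) and with all 11 arrays in the fit (0.0517). Pfkl has another spot on the array, which held no value on any of the 10 arrays, so the result rests on 1 spot. Pfkm, the muscle type of the same enzyme, had ratios of -0.11 on control array 2, of 0.07 on fasted array 1 and of 0.30 on fasted array 2, and no value elsewhere.

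**Figure D3:**
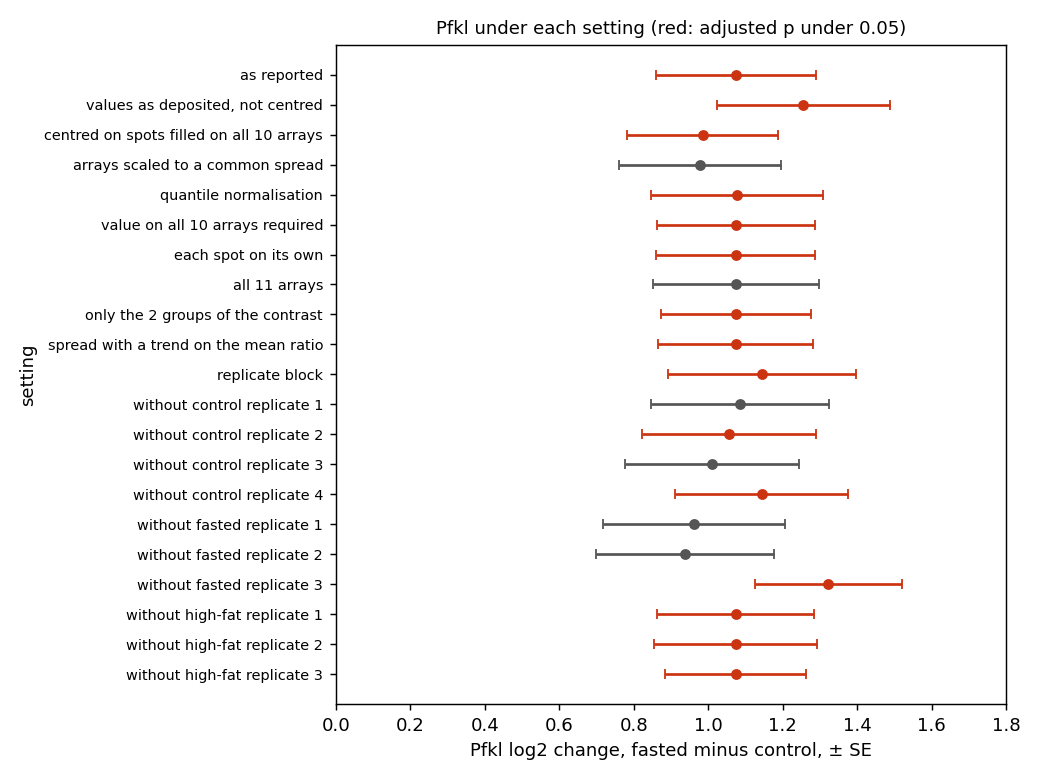
Change of Pfkl between control and fasted livers (log2, point) with its SE (bar) under the reported setting and each alternative. All points lie between 0.94 and 1.32, and the grey ones missed an adjusted p of 0.05.

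The promoter of Pfkl is printed because it is the 1 member called, beside those of Pdk2 and Mdh2, the tested members with the lowest change and the next highest change between control and fasted livers. The sequences are those of RefSeq on GRCm38.p6, run 5′ to 3′ on the gene's strand and cover 250 bases before to 50 bases after the start of transcription. The windows are chr10:78009758-78010057 on the minus strand for Pfkl, chr11:95041322-95041621 on the minus strand for the upstream start of Pdk2, and chr5:135778399-135778698 on the plus strand for Mdh2. Capitals mark matches to any of 4 motifs, looked for on both strands. The E-box searched was CACGTG. The cyclic AMP response element, which glucagon signalling uses, was searched as TGACGTCA. The forkhead motif known for Foxo1 was searched as GTAAACA. The TATA box that places the start of transcription was searched as TATAAA.
Pfkl: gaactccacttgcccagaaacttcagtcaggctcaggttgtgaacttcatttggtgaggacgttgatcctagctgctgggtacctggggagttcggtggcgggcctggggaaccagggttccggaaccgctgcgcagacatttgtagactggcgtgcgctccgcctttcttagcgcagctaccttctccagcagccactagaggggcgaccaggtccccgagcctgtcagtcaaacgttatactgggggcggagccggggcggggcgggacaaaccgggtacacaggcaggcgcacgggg
Pdk2: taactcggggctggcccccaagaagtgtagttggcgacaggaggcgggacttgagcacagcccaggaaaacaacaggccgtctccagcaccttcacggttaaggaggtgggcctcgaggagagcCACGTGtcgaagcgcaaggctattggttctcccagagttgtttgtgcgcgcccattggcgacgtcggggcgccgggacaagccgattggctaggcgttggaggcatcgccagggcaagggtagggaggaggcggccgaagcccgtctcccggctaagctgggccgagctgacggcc
Mdh2: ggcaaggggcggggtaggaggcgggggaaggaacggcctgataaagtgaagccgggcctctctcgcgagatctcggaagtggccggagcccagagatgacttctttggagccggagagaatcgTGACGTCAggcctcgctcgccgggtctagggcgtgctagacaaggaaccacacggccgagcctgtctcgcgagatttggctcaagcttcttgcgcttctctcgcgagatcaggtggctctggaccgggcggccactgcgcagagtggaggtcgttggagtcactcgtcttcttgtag
The Pfkl window held none of these letters. The E-box in the Pdk2 window is found in 7.15% of 32851 promoter windows of the same length, and the cyclic AMP response element in the Mdh2 window in 1.79%. Of the 14 tested members 13 have a promoter entry, 17 windows in all. Among these windows the E-box occurred in that 1 window of Pdk2, the cyclic AMP response element in that of Mdh2, the TATA box in 1 of Pklr and the forkhead motif in 0, against 13.6% and 3.65% of all windows for the last pair. A match is a description of letters and no evidence of binding.

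Aldoa encodes an aldolase that splits fructose bisphosphate. Its ratios were 0.75, 0.53, 0.55 and 0.77 on control arrays, 0.16, 0.38 and 0.62 on high-fat arrays and 0.62, 0.47 and 0.54 on fasted arrays. The 3 groups overlapped, and the lowest value was that of high-fat array 1. The change between control and high-fat livers was -0.26 ± 0.14 (SE, adjusted p = 0.249, 95% interval -0.56 to 0.03). Pklr, the liver pyruvate kinase that ends glycolysis and is a known target of carbohydrate signals, ranged from -0.27 to 0.39 on control, from -0.18 to 0.34 on high-fat and from 0.02 to 0.08 on fasted arrays. Its change between high-fat and fasted livers was -0.04, with a 95% interval from -0.46 to 0.39 (adjusted p = 0.951).

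Of the glycolysis genes with too few values, Pfkfb3, which makes the activator fructose 2,6-bisphosphate, had 1.52 and 1.41 on control arrays 2 and 3 and 0.73 on high-fat array 1. Ldha, lactate dehydrogenase A, has 17 spots. The single spot with values on more than 1 array had 0.57 and 0.43 on control arrays 2 and 3 and -0.05 on fasted array 1. Other Ldha spots differed from it, at -0.10 on control array 2 and -0.34 on fasted array 1. Gapdh has 17 spots, of which 5 held a value on any of the 10 arrays. Its ratio was -1.03 on control array 2 and 0.01 on control array 4, and between -0.53 and -0.13 on the 3 other arrays with a value. Only the spot with -1.15 on control array 2 and -0.35 on high-fat array 1 held values on more than 1 array. Differences of Gapdh between arrays thus cannot be told apart from differences between its spots. Tpi1 and Pgk1 were below 0 on each of the 2 arrays where they held a value, at -0.64 to -0.24.

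Gluconeogenesis was left with 1 tested member. Mdh1, the cytosolic malate dehydrogenase that passes oxaloacetate to Pck1, had 1.02, 1.00, 0.91 and 1.12 on control, 0.81, 0.87 and 1.03 on high-fat and 0.98, 1.01 and 0.95 on fasted arrays. The groups overlapped in every comparison, and the spread within groups was small (SD of 0.09, 0.11 and 0.03). The change was -0.11 ± 0.11 (SE) for high-fat against control and 0.08 ± 0.12 (SE) for fasted against high-fat, with adjusted p of 0.585 and 0.797. These signs turned with scaled arrays and with quantile normalisation. For fasted against control the 95% interval ran from -0.28 to 0.21.

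The other members of gluconeogenesis had too few values for the test over 3 groups. Fbp1, fructose-1,6-bisphosphatase, had 2.98, 1.68 and 1.42 on control arrays 2 to 4, 0.55, 1.22 and 2.17 on high-fat arrays 1 to 3 and 1.30 on fasted array 3. In a fit that held control and high-fat arrays alone, its change was -0.71 ± 0.47 (SE, adjusted p = 0.411), and the groups overlapped. G6pc, the glucose-6-phosphatase that releases free glucose, had 2.82 and 1.54 on control arrays 2 and 3 and no other value. Pcx, pyruvate carboxylase, had 2.11 and 1.63 on the same arrays and 0.84 on fasted array 1. Gpd1, which ties glycerol to glycolysis, had 0.41, 2.43, 1.29 and 0.60 on control arrays, 0.01 on high-fat array 1 and 1.12, 0.73 and 0.51 on fasted arrays. Its change for fasted against control was -0.40 ± 0.42 (SE, adjusted p = 0.655) in a fit of these groups alone. Aqp9, the glycerol channel of hepatocytes, had 1.14 on control array 2 and 0.07 on control array 4.

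**Figure D4:**
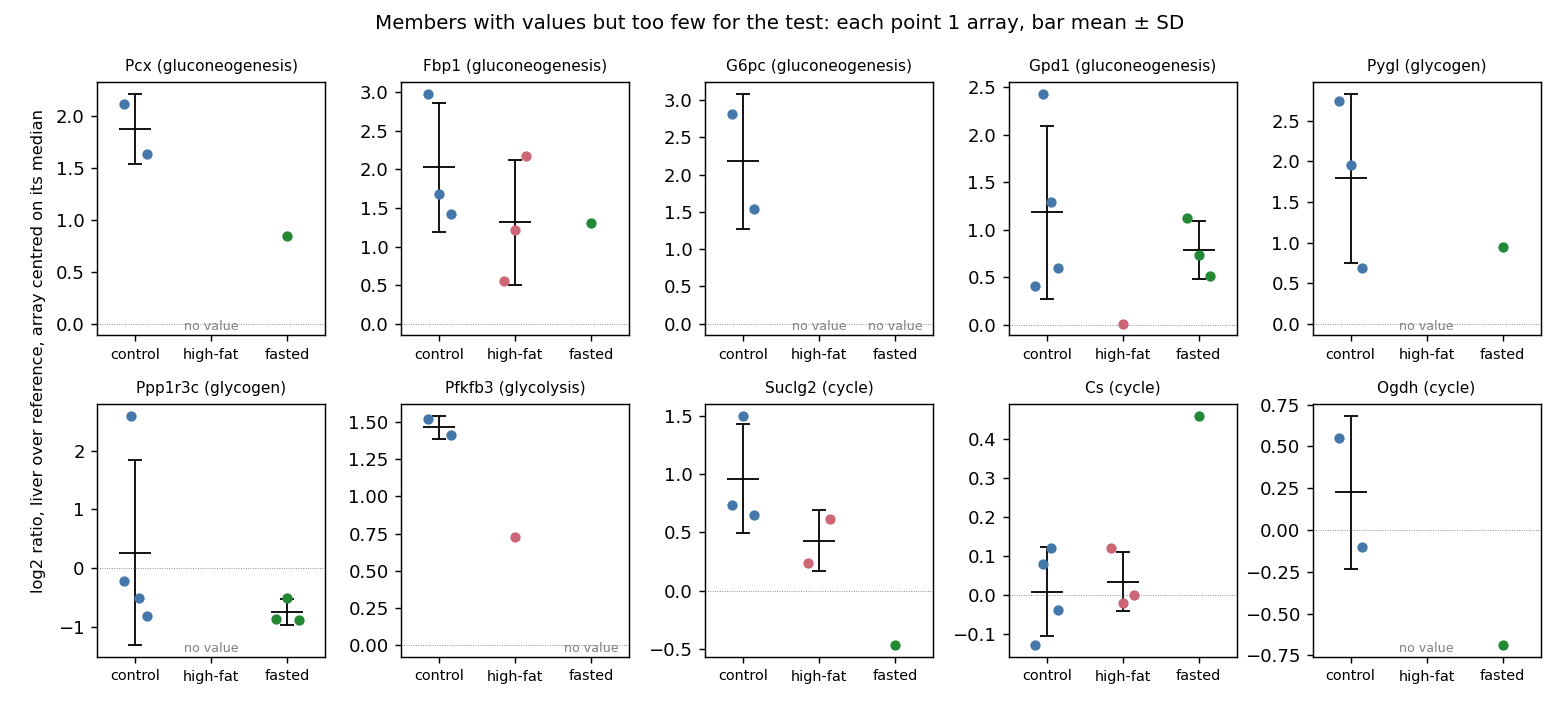
Centred log2 ratio of liver over reference for 10 members with values on too few arrays for the test over 3 groups. Each point is 1 array and the bar is mean ± SD. G6pc has values on 2 control arrays (2.82 and 1.54), and Ppp1r3c stands at 2.60 on control array 2.

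Control array 2 held the highest value of the 10 arrays for Fbp1, G6pc, Pcx, Gpd1, Aqp9, Pygl, Ppp1r3c, Suclg2 and Pdk2. The same was true of Pfkfb3, Dlst, Ogdh, Suclg1, Fh1 and Pdha1. It was not true of Mdh1, Mdh2, Foxo1, Pfkl, Pfkm, Aldoa, Pklr, Gapdh, Ldha, Gys2, Gbe1, Cs, Idh2, Sucla2 or Pdhb. For Gapdh and Pfkm that array held the lowest value, but the means of Gapdh and Ldha rest on spots that differed between arrays. The Ldha spot with values on more than 1 array was highest on control array 2, at 0.57. It had 0.43 on control array 3 and -0.05 on fasted array 1. G6pc, Aqp9, Suclg1 and Pdha1 held values on only 2 of the 10 arrays, and Pcx, Ogdh, Pfkfb3, Pfkm and Ldha on only 3. The share of all genes highest on that array was not computed. Control array 2 also had the most filled spots and the widest spread of ratios, 0.52. Its level of hepatocyte markers was the highest, 2.81 against 1.64 to 1.85 on the other control arrays. The part of these measures in the members' values was not tested.

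Among the glycogen genes, Gys2, the liver glycogen synthase, had -0.20, 0.09, -0.01 and -0.28 on control, -0.08, 0.16 and 0.01 on high-fat and -0.22, 0 and -0.28 on fasted arrays. Gbe1, the branching enzyme, had -0.12, 0.10, -0.09 and -0.18 on control, 0.10, 0.02 and 0.25 on high-fat and -0.21, -0.07 and -0.25 on fasted arrays. For Gbe1 all high-fat arrays lay above all fasted arrays, and for Gys2 the groups overlapped. Between high-fat and fasted livers Gbe1 changed by -0.30 ± 0.13 (SE, adjusted p = 0.320) and Gys2 by -0.20 ± 0.14 (SE, adjusted p = 0.530), neither past the test. With the diet, values were 0.20 and 0.13 with adjusted p of 0.331 and 0.585.

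Ppp1r3c, which targets protein phosphatase to glycogen, had -0.22, 2.60, -0.51 and -0.82 on control arrays and -0.87, -0.50 and -0.88 on fasted arrays, with no value on a high-fat array. Control array 2 thus stood far above the other 6, and the change of -1.01 ± 0.69 (SE) in a fit of control and fasted arrays alone did not pass (adjusted p = 0.470). Pygl, the liver glycogen phosphorylase, had 2.74, 1.96 and 0.68 on control arrays 2 to 4 and 0.95 on fasted array 1.

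Foxo1 was the only tested member of hormonal control. Its ratios were 0.17, 0.09, 0.10 and 0.17 on control arrays, 0.42, 0.41 and 0.43 on high-fat arrays and 0.02, 0.13 and 0.03 on fasted arrays. The 3 high-fat arrays lay above all 7 others, and control and fasted arrays overlapped. The differences were small and did not pass over all genes: 0.29 ± 0.10 (SE, adjusted p = 0.119) for high-fat against control and -0.36 ± 0.11 (SE, adjusted p = 0.171) for fasted against high-fat. Over the other settings the signs stayed the same, and the adjusted p ranged from 0.0529 to 0.871 and from 0.110 to 0.769. With all 11 arrays the changes were 0.06 and -0.13, and for high-fat against control it was 0.45 with quantile normalisation. With values as deposited the change for fasted against high-fat was -0.16.

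In the pyruvate dehydrogenase group, Pdhb, the beta subunit of the decarboxylating enzyme, had 0.23, 0.31, 0.29 and 0.13 on control, 0.13, 0.21 and 0.45 on high-fat and 0.49, 0.46 and 0.52 on fasted arrays. The fasted arrays lay above all others, by a narrow margin over high-fat array 3. The change was 0.25 ± 0.12 (SE, adjusted p = 0.259) against control and 0.23 ± 0.13 (SE, adjusted p = 0.412) against high-fat. Pdk2 encodes a kinase that phosphorylates and thereby inhibits this enzyme. It had 1.35 and 0.53 on control arrays 2 and 3, 0.17 and -0.04 on high-fat arrays 1 and 3 and -0.12 and -0.14 on fasted arrays 1 and 3. The order of the groups was complete, with control above high-fat and high-fat above fasted, but on 2 arrays each and without a call. The values were -0.88 ± 0.27 (SE, adjusted p = 0.0950) for high-fat against control and -1.07 ± 0.27 (SE, adjusted p = 0.0772) for fasted against control. Over the 12 other settings in which Pdk2 could be tested, the adjusted p of the latter ranged from 0.0502 to 0.156. Leaving out any array with a Pdk2 value, control array 2 among them, left too few values for the test. The dependence on those arrays was therefore not tested. The change for high-fat against control was -0.52 with the replicate block (adjusted p = 0.233) and -0.53 with quantile normalisation (adjusted p = 0.208). Pdha1, the alpha subunit, had 1.06 on control array 2 and 0.33 on high-fat array 3.

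Of the 15 genes of the cycle 5 could be tested, and 0 were called in any comparison. All 5 had negative changes between control and high-fat livers, from -0.27 to -0.01 with a median of -0.08, where 39.7% of all genes were negative and the median of all genes was 0.08. With scaled arrays or quantile normalisation 3 of the 5 were negative. Between high-fat and fasted livers 4 of the 5 were positive, with a median of 0.23, where 43.3% of all genes were positive, and the same split of 4 and 1 was found under each of the 4 other scalings. The median was 0.12 with scaled arrays, 0.13 with quantile normalisation and 0.42 with values as deposited.

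Mdh2, the mitochondrial malate dehydrogenase that closes the cycle, had 0.51, 0.79, 0.89 and 0.69 on control, 0.68, 0.57 and 0.64 on high-fat and 1.10, 0.92 and 1.12 on fasted arrays. All fasted arrays lay above all other arrays. The change was 0.42 ± 0.13 (SE, adjusted p = 0.187) against high-fat and 0.33 ± 0.13 (SE, adjusted p = 0.164) against control, and the sign was the same under each of the 19 other settings, none of which gave a call. The size against high-fat ranged from 0.13 with scaled arrays (adjusted p = 0.844) to 0.65 with all 11 arrays. Sucla2, the ATP-specific beta subunit of succinate-CoA ligase, had 0.86, 0.60, 0.85 and 0.68 on control, 0.23, 0.49 and 0.72 on high-fat and 0.84, 0.63 and 0.82 on fasted arrays. Its groups overlapped, with -0.27 ± 0.14 (SE, adjusted p = 0.261) for high-fat against control and 0.28 ± 0.15 (SE, adjusted p = 0.391) for fasted against high-fat.

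Fh1, the fumarase, had -0.04, 0.54 and 0.02 on control arrays 1, 2 and 4, -0.06, 0.33 and 0.01 on high-fat arrays and -0.28 and -0.50 on fasted arrays 1 and 2. Both fasted arrays lay below all others, and neither difference passed: -0.48 ± 0.21 (SE, adjusted p = 0.330) against high-fat and -0.56 ± 0.21 (SE, adjusted p = 0.165) against control. The mitochondrial isocitrate dehydrogenase Idh2 had 0.37, 0.29 and -0.11 on control, 0.11, 0.33 and 0.08 on high-fat and 0.70 and 0.10 on fasted arrays 1 and 3, with overlap throughout. Its changes, -0.01 to 0.23 over the 3 comparisons, had adjusted p of 0.622 or more. Dlst, a subunit of the oxoglutarate dehydrogenase complex, has 2 spots, of which 1 held a value on only 4 of the 10 arrays. The spots differed on fasted array 1 (-0.37 and 0.04), control array 3 (-0.34 and -0.07) and high-fat array 1 (-0.22 and -0.03). On control array 1 they were close, at -0.34 and -0.35. The mean of the filled spots ranged from -0.35 to 0.04 on control, from -0.23 to -0.13 on high-fat and from -0.29 to -0.03 on fasted arrays. Its 95% interval for high-fat against control ran from -0.31 to 0.24.

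Cs, the citrate synthase that opens the cycle, had -0.13, 0.08, 0.12 and -0.04 on control, 0.12, -0.02 and 0 on high-fat arrays and 0.46 on fasted array 1. In a fit of control and high-fat arrays its change was 0.03 ± 0.13 (SE, adjusted p = 0.933). Suclg2, the GTP-specific beta subunit of succinate-CoA ligase, had 0.73, 1.5 and 0.65 on control arrays 1, 2 and 4, 0.24 and 0.61 on high-fat arrays 1 and 3 and -0.47 on fasted array 1. Its change with the diet was -0.54 ± 0.28 (SE, adjusted p = 0.317) in the same kind of fit, and the groups did not overlap. Ogdh, of the oxoglutarate dehydrogenase complex, had 0.55 and -0.10 on control arrays 2 and 3 and -0.69 on fasted array 1. Suclg1 had 1.41 on control array 2 and 0.37 on fasted array 1.

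**Figure D5:**
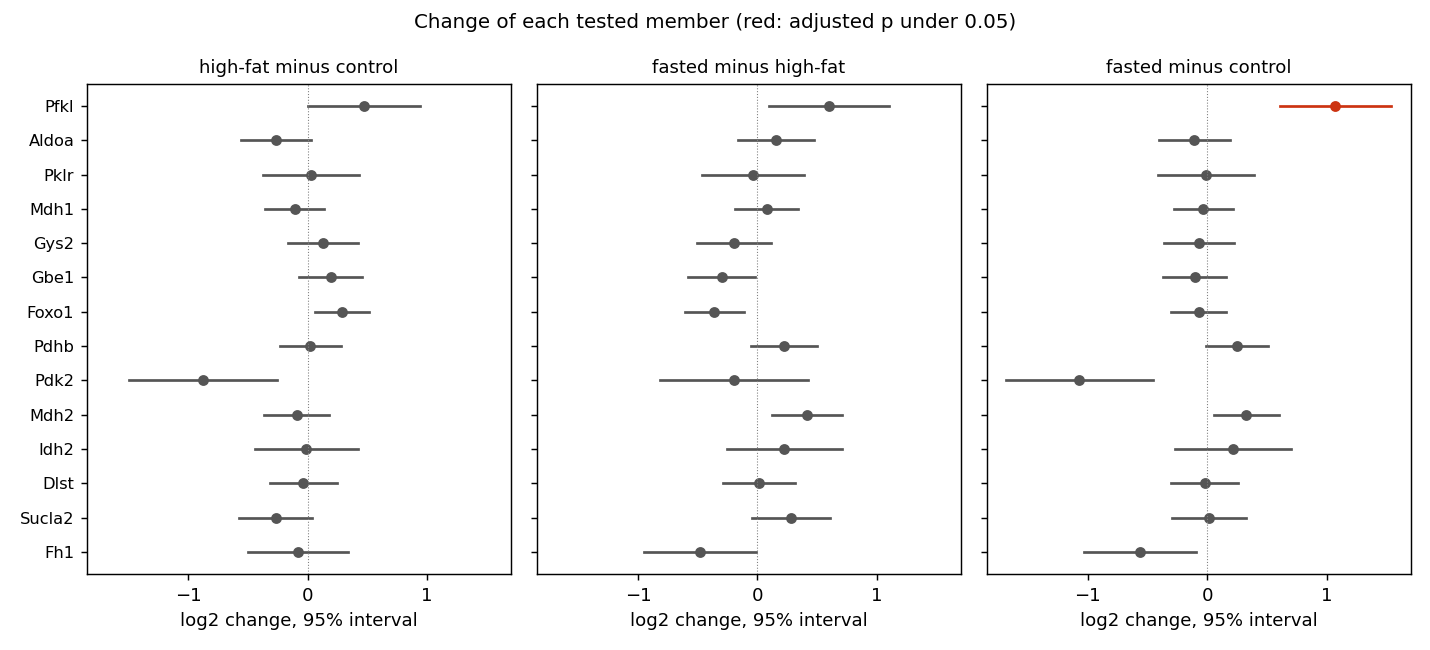
Change (log2) of each tested member with its 95% interval in the 3 comparisons. Pfkl, at 1.07 for fasted against control, is the 1 member past an adjusted p of 0.05, and Pdk2 has the widest intervals.

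The groups did not overlap for 2 of the 14 members between high-fat and control (Foxo1 higher, Pdk2 lower), against 25.4% of all genes. Between fasted and high-fat they did not overlap for 6 (Mdh2 and Pdhb higher, Foxo1, Gbe1, Fh1 and Pdk2 lower), against 28.8%. Between fasted and control there were 5 (Pfkl, Mdh2 and Pdhb higher, Fh1 and Pdk2 lower), against 22.2%. With 2 arrays in some groups, as for Pdk2, a lack of overlap is easily met.

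A wider list held 112 other genes of glucose handling, of which 23 could be tested. It took in glucose transport and anaplerosis, fructose and hexose metabolism, the pentose phosphate route, glycogen phosphorylases and kinases, succinate dehydrogenase, malic enzymes and insulin and glucagon signalling. Between high-fat and control livers 1 of the 23 fell and 0 rose, against 4.92% of all genes called. There were 8 higher and 15 lower, with a median of -0.07, where 60.3% of all genes were higher. This balance turned to 12 higher and 11 lower (median 0.01) with scaled arrays and to 14 and 9 (median 0.06) with quantile normalisation. Pmm1, a phosphomannomutase that interconverts mannose phosphates, had 2.37, 2.53, 1.69 and 2.20 on control, 1.46, 0.77 and 0.89 on high-fat and 1.60, 2.00 and 1.88 on fasted arrays. The high-fat arrays lay below all others. The change with the diet was -1.16 ± 0.22 (SE, adjusted p = 0.0188), and with arrays scaled to a common spread or with quantile normalisation it was -0.59 and did not pass (adjusted p = 0.364 and 0.235). The call was also lost without high-fat array 2 (0.0891) or 3 (0.0567) and with control and high-fat arrays alone in the fit (0.0555). Between high-fat and fasted livers Pmm1 had 0.79 ± 0.23 (SE, adjusted p = 0.155).

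Other genes of the wider list with the smallest p did not pass. For high-fat against control these were Pgls, of the pentose phosphate route, with 0.38 (adjusted p = 0.118), and Got2, the mitochondrial aspartate aminotransferase, with -0.68 (adjusted p = 0.144). For fasted against high-fat, where 0 of 23 were called by limma (0.365% of all genes) and 1 had an unadjusted p under 0.05 (14.6% of all genes), the muscle glycogen phosphorylase gene Pygm had -0.25 and the transcription factor gene Creb1 -0.29, with adjusted p of 0.432 and 0.450. With values as deposited 1 of the 23 rose in that comparison. For fasted against control, where again 0 of 23 were called by limma (3.2% of all genes) and 6 had an unadjusted p under 0.05 (20.4% of all genes), Creb1 had -0.62 ± 0.17 (SE, adjusted p = 0.0959), its coactivator Crtc2 0.50 ± 0.16 (SE, adjusted p = 0.110) and Pygm -0.39 ± 0.14 (SE, adjusted p = 0.137). The fit of Creb1 rested on fewer filled arrays, with 3 residual degrees of freedom against 7 for Crtc2 and Pygm.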

How the data were processed

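The deposited table holds, per the labels' protocols, log ratios of Cy5-labelled liver RNA over Cy3-labelled reference RNA. The authors' values are taken as log2. Of the base, scanner, background correction, normalisation within arrays and rule for empty cells, none is given in the sources used here, and another base would scale every change by 1 constant. Precision is limited by the number of arrays, and brightness over background was not analysed here. Each array was centred on its median and spots of 1 symbol were averaged. Genes with values on at least 2 arrays of each group entered 1 limma 3.58.1 fit (R 4.3.3) over 3 groups, with two-sided moderated tests and Benjamini-Hochberg adjustment over all 3558 genes. Where a gene has empty cells, its fit uses the filled arrays alone. High-fat array 4 was left out, a choice made with its lack of correlation known.

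The members and lists were chosen with earlier results of these data known. Every tested member is named, with array values for those called or among the 12 with the smallest p of the F test. Of the wider list, the genes called and the 3 with the smallest p per comparison are named. Promoters come from RefSeq (GRCm38.p6). The script was tested on simulated arrays. Alternatives tried were 4 scalings, a stricter filter, single spots, all 11 arrays, other groupings and spread models, a replicate block and leaving out each array.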

Additional observations from a re-analysis of the deposited data

How the results depend on the processing

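Members called stayed at 0 for high-fat against control and for fasted against high-fat under every alternative run. For fasted against control the count of 1 member turned to 0 with arrays scaled to a common spread and with all 11 arrays, and lay between 0 and 1 as single arrays were left out. The count of all genes called for high-fat against control (175) was 86 with values as deposited and 25 with only the groups compared in the fit, and 22 (without high-fat array 2) to 190 as single arrays were left out. For fasted against high-fat (13) it was 24 with quantile normalisation, 7 with a value required on all arrays, 3 with all 11 arrays, 49 with only the groups compared, and 3 to 23 without single arrays. For fasted against control (114) it was 198 with values as deposited, 10 with scaled arrays, 73 with quantile normalisation, 25 with all 11 arrays, 47 with only the groups compared, and 5 (without fasted array 2) to 157 without single arrays. Some of these fits held fewer arrays or genes and others more, and the cause of the differences in counts was not tested. The replicate number names a mouse, and the labels give no pairing. Deviations of same-numbered arrays correlated at -0.18 to 0.18 over 9 pairs, and those of differently numbered arrays at -0.23 to 0.25. The pairs numbered 1 had 0.18, 0.15 and 0.12. With the replicate block the count for fasted against high-fat was 4. These correlations cannot show whether same-numbered arrays shared a batch, which was not tested. Over single members and comparisons, 698 values kept their sign and their side of the threshold, 55 that were not called changed sign, and 6, all of Pfkl, lost the call.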
